A study of Mus musculus with 12 samples.

Results

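The cytosolic ribosome is built from ribosomal RNA and a fixed set of proteins, and the genes of these proteins are described here in intestinal stem cells (ISCs) of young and old mice. Members were the protein-coding genes whose symbol is Rpl or Rps followed by a number, with or without a final a or x, together with Rplp0, Rplp1, Rplp2 and Rpsa, and pseudogenes were left out. This gave 76 of the 54232 genes in the count table, of which 46 encode proteins of the large (60S) subunit and 30 encode proteins of the small (40S) subunit. All 76 members had counts in each of the 12 libraries and passed the filter on low values. The pseudogenes left out were 301 annotated genes of the count table with a symbol that begins with Rpl or Rps.

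Every library came from the small intestinal epithelium of 1 mouse, aged 2 months (young) or 22 months (old). In the SM6 isolation, named after 6 surface markers, ISCs came from C57/Bl6 wild-type (WT) mice. In the Lgr5-GFP isolation they came from a strain that the labels spell Lgr5-EGFP-IRES-CreERT and the methods of the study Lgr5-EGFP-IRES-CreERT2. In this strain the locus of Lgr5, a receptor gene used in ISCs, also drives a fluorescent protein and a Cre recombinase. Each of the 4 groups had 3 libraries, the methods describe the mice as female, and no group received a treatment. Strain and isolation change together, so they cannot be told apart. The labels give one sort protocol, by surface markers, for all libraries, but according to a figure legend of the study reporter mice were sorted on GFP.

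Each ribosomal protein is needed in a single copy per ribosome (the acidic stalk proteins excepted), so dividing cells need large amounts of all of them. Most of the mRNAs of these proteins start with a run of pyrimidines, the 5′ terminal oligopyrimidine (TOP) motif. Through it the mTORC1 kinase and its target LARP1 control their translation and stability. Crypt base stem cells divide often, and ribosome production is known to be high in them.

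The start sites show how far this shared feature reached in the genes that the results turn on. Each sequence below holds 15 bases before and 15 bases from the annotated start onward, and capitals mark runs of at least 5 pyrimidines (C or T). Rps25 and Rpl5 are shown because they were lower in old ISCs, and Rpl35 and Rps6 because they were among the members with the largest positive differences in Lgr5-GFP. Rplp0, Rplp2, Rpl41 and Rpl10 are shown as members of the common pattern.
Rps25, chr9:44407699-44407728, plus strand: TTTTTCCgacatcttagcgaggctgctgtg
Rpl5, chr5:107900513-107900542, plus strand: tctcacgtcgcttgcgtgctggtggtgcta
Rpl35, chr2:39005117-39005146, minus strand: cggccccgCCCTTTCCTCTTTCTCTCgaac
Rps6, chr4:86857353-86857382, minus strand: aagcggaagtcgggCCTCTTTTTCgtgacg
Rplp0, chr5:115559452-115559481, plus strand: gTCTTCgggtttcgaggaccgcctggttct
Rplp2, chr7:141447636-141447665, plus strand: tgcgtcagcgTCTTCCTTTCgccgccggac
Rpl41, chr10:128549154-128549183, minus strand: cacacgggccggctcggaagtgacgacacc
Rpl10, chrX:74270801-74270830, plus strand: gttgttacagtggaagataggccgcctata
The sequences and starts are those of RefSeq on GRCm38.p6, where 56 members were found. A run of at least 8 pyrimidines lay in this 30-base window in 25 of the 56 members (44.6%) and in 13.9% of 27025 genes. In the 300 bases from 250 before to 50 after the start, the ETS-type motif CCGGAAG occurred on either strand in 23 members (41.1%) and in 9.93% of all genes, and CTCTTTC in 17 members (30.4%) and in 9.28%. The motif AAGATGGCG was found in 3 members (5.36%) and in 1.64% of genes, and the E-box CACGTG in 6 members (10.7%) and in 8.09%. These matches describe the letters in the windows, and starts can differ between annotations. Of the 2 members that were called lower in old ISCs, Rps25 began upstream of its start with a pyrimidine run of 7 bases and Rpl5 had no run of 5 in its window. This was not particular to them, since Rpl41 and Rpl10 had no run of 5 either and that of Rplp0 was 5 bases long.

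Counts summed over the members made up between 5.05% and 10.3% of a library. In SM6 young, the share was 7.78%, 8.56% and 8.72% in replicates 1 to 3, and in SM6 old it was 9.03%, 10.3% and 5.17%. In Lgr5-GFP young it was 5.05%, 7.43% and 7.47%, and in Lgr5-GFP old it was 8.81%, 9.08% and 9.27%. The old Lgr5-GFP libraries therefore lay above all young libraries of that isolation, whereas the old SM6 libraries lay on both sides of the young ones. For SM6, the mean share was 8.35% ± 0.504 (SD, n = 3) at the young and 8.16% ± 2.66 at the old age. For Lgr5-GFP, it was 6.65% ± 1.38 when young and 9.05% ± 0.233 when old. Wilson 95% intervals of single shares were narrow, from 5.03% to 5.07% for the lowest and from 10.2% to 10.3% for the highest library. They cover counting error at most. In RNA from many cells, fewer cells of a type and less RNA per cell cannot be told apart.

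The large and the small subunit each took about the same part of the counts in every library. The ratio of large-subunit to small-subunit counts ran from 0.945 to 1.09 over the 12 libraries. Its mean was 0.990 ± 0.0313 (SD, n = 3) for young and 0.998 ± 0.0515 for old SM6 libraries, and 1.06 ± 0.0291 for young and 0.990 ± 0.0395 for old Lgr5-GFP libraries. The lowest young Lgr5-GFP library, at 1.04, lay above the highest old one, at 1.01, and no test was run on this ratio.

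**Figure D1:**
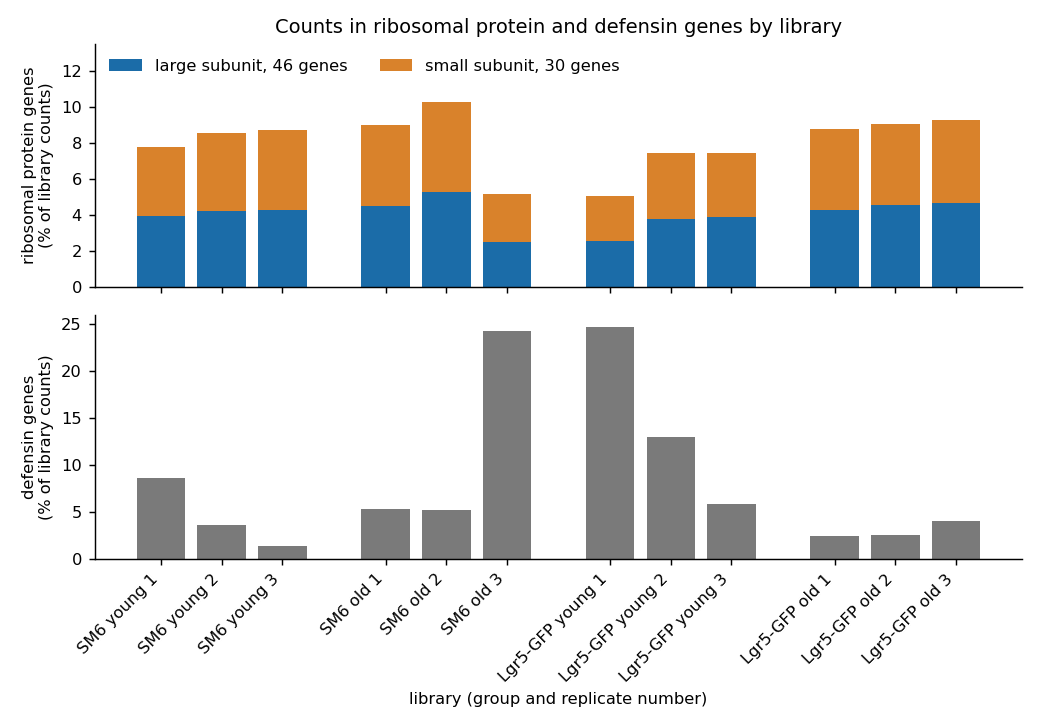
Percentage of the counts of each of the 12 libraries in large-subunit and small-subunit ribosomal protein genes, stacked (top), and in 41 defensin genes (bottom). The lowest ribosomal bars, 5.05% in Lgr5-GFP young 1 and 5.17% in SM6 old 3, stand above the highest defensin bars, 24.7% and 24.3%.

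A pair of libraries stood apart, and they lay in opposite age groups. SM6 old replicate 3 and Lgr5-GFP young replicate 1 had the lowest ribosomal protein shares, and they had 24.3% and 24.7% of their counts in defensin genes, which encode the antimicrobial peptides of Paneth cells, against 1.31% to 12.9% in the other 10 libraries. A list of 9 Paneth cell markers, each detected, which shares Defa17 and Defa24 with the defensin genes, summed to between 1.15% and 6.76% of counts in young and between 4.35% and 21.7% in old SM6 libraries. The same sum lay between 4.55% and 20.5% in young and between 1.98% and 3.28% in old Lgr5-GFP libraries. With Paneth and defensin genes left out of the total, the members still made up 7.21% of SM6 old replicate 3 and 7.10% of Lgr5-GFP young replicate 1, below the 7.98% to 10.9% of the other libraries. Whether the Paneth cell transcripts had a part in the ribosomal protein differences was not tested. Results are given below with and without this pair.

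ISC identity was checked with 12 stem cell markers, Lgr5, Ascl2 and Olfm4 among them, all of which were detected. They summed to between 1.30% and 1.67% of counts in young and between 0.753% and 0.858% in old SM6 libraries. In Lgr5-GFP the range was 1.14% to 1.41% at the young and 1.19% to 1.34% at the old age. Goblet cell markers (7 genes) reached between 1.44% and 1.82% in SM6 old and at most 1.14% in the other groups. Enterocyte markers (9 genes) averaged 0.209% in young and 0.543% in old SM6 libraries, and 0.230% and 0.608% in Lgr5-GFP, with overlap between ages. Enteroendocrine markers (8 genes) averaged 0.107% and 0.159% in young and old SM6 but 0.0152% and 0.0101% in Lgr5-GFP. Markers of dividing cells (5 genes) lay between 0.117% and 0.147% in young and between 0.0895% and 0.108% in old SM6 libraries, without overlap, and between 0.0856% and 0.168% in Lgr5-GFP. The part of these cell types in the ribosomal protein differences was not tested. Lists for tuft cells, immune cells, stroma and red blood cells each reached at most 0.00550% of counts. The tuft cell gene Il25, the B cell gene Cd79a and the stromal genes Col3a1 and Pdgfra were at 0 in all 12 libraries. Library totals ran from 970472 to 3815425 counts.

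In the libraries with the highest and lowest shares, most members lay on the same side of their own mean. A member's level is given as CPM, its count relative to the library total after the totals were scaled with TMM factors (trimmed mean of M values). Mean levels over the 12 libraries differed widely between members, from 3.22 CPM (Rpl24) to 4833 CPM (Rps19). Relative to their own mean over the 12 libraries on the log2(CPM + 1) scale, 73 of 76 members were high in SM6 old replicate 2, 1 in SM6 old replicate 3 and 0 in Lgr5-GFP young replicate 1. The median deviation was 0.35 for the large and 0.37 for the small subunit in SM6 old replicate 2. It was −0.34 and −0.29 in SM6 old replicate 3, and −0.37 and −0.36 in Lgr5-GFP young replicate 1. Both subunits thus shifted by similar amounts in the same libraries. Of the members, 39, 58 and 64 lay above their own mean in the 3 old Lgr5-GFP libraries, against 0, 24 and 15 in the young ones.

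**Figure D2:**
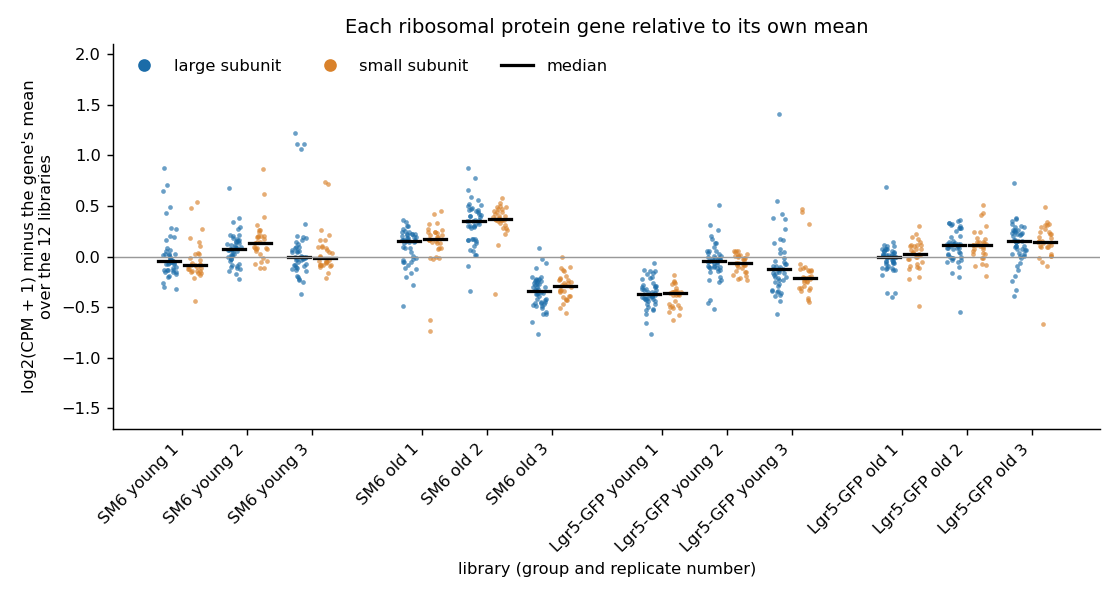
Deviation of each of the 76 genes from its own mean over the 12 libraries, on the log2(CPM + 1) scale, with large-subunit genes at the left and small-subunit genes at the right of each library and bars at the medians. Both medians are lowest in SM6 old 3 (−0.34 and −0.29) and Lgr5-GFP young 1 (−0.37 and −0.36) and highest in SM6 old 2 (0.35 and 0.37).

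The first comparison asks how ribosomal protein mRNAs differed between old and young WT ISCs isolated by SM6. Rps25 and Rpl5 were lower in old ISCs, by 2.41-fold and 1.94-fold, and the other 74 members did not pass the test. A gene was called at a Benjamini-Hochberg adjusted p under 0.05 in edgeR's quasi-likelihood test over 13368 genes. Thus 2 of 76 members were called lower, where 1.77% of all genes tested were, and 0 were called higher, where 0.643% were. DESeq2 and limma voom also called 2 members lower and 0 higher. At an unadjusted p under 0.05, 5 members were lower, where 7.68% of all genes were, and 0 were higher, where 5.45% were. The 5 became 3 when SM6 old replicate 1, SM6 old replicate 3 or the third young SM6 library was left out, and 2 in limma voom. Without SM6 old replicate 3 alone, 24 were higher at that threshold, where 6.18% of all genes were.

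Rps25 encodes a protein of the head of the small subunit that is used by internal ribosome entry sites. Its gene (ENSMUSG00000009927, chromosome 9, 44407139 to 44410427, plus strand of GRCm38) had 958, 1205 and 1099 CPM in SM6 young and 395, 511 and 447 CPM in SM6 old. All old SM6 libraries lay below all young ones. The log2 fold change was −1.27 ± 0.23 (SE; edgeR adjusted p = 0.0027). In Lgr5-GFP, Rps25 had 580, 652 and 915 CPM in young and 471, 880 and 417 CPM in old libraries, and these groups overlapped. The log2 fold change there was −0.28 ± 0.23 (edgeR adjusted p = 0.76). The difference between the age effects, tested as an interaction, was 0.99 ± 0.32 on the log2 scale and was not called (edgeR adjusted p = 0.26), though it was without the filter on low values (0.97, edgeR adjusted p = 0.0146). Averaged over both isolations, Rps25 was 1.71-fold lower in old ISCs (log2 fold change −0.78 ± 0.16, edgeR adjusted p = 0.0064).

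Rpl5 encodes a large-subunit protein that binds 5S ribosomal RNA together with the product of Rpl11, a complex also known for restraining the p53 regulator Mdm2. Rpl5 (ENSMUSG00000058558, chromosome 5, 107900502 to 107909005, plus strand) had 760, 650 and 1130 CPM in SM6 young and 385, 544 and 379 CPM in SM6 old. The groups did not overlap, although SM6 young replicate 3 stood well above the other young libraries. The log2 fold change was −0.95 ± 0.23 (edgeR adjusted p = 0.0236). The call was lost without the third young library (log2 fold change −0.69, edgeR adjusted p = 0.19), without SM6 old replicate 1 (−0.86, adjusted p = 0.15) and without SM6 old replicate 3 (−0.86, adjusted p = 0.0658). In Lgr5-GFP, Rpl5 had 488, 400 and 789 CPM in young and 408, 503 and 429 CPM in old libraries, with overlap (log2 fold change −0.33 ± 0.23, edgeR adjusted p = 0.70). The average over both isolations was −0.64 ± 0.16 (edgeR adjusted p = 0.0294). Leaving out any of 5 single libraries ended this call, with edgeR adjusted p = 0.13 without Lgr5-GFP young replicate 3, 0.11 without SM6 old replicate 1, 0.12 without young SM6 replicate 3, 0.0903 without Lgr5-GFP old replicate 1 and 0.0729 without Lgr5-GFP old replicate 3. Scaling by library totals alone ended it too (edgeR adjusted p = 0.0855).

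Rpl11, the partner of Rpl5, went the other way. It had 1136, 1194 and 1315 CPM in SM6 young and 1665, 1991 and 1083 CPM in SM6 old, where replicate 3 lay below the young libraries. At 0.38 ± 0.19 it had the highest log2 fold change of any member in SM6, without passing the test (edgeR adjusted p = 0.40). Without SM6 old replicate 3, it was called (log2 fold change 0.60, edgeR adjusted p = 0.0406). In Lgr5-GFP, Rpl11 levels overlapped between ages (log2 fold change 0.02 ± 0.19, edgeR adjusted p = 0.99).

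**Figure D3:**
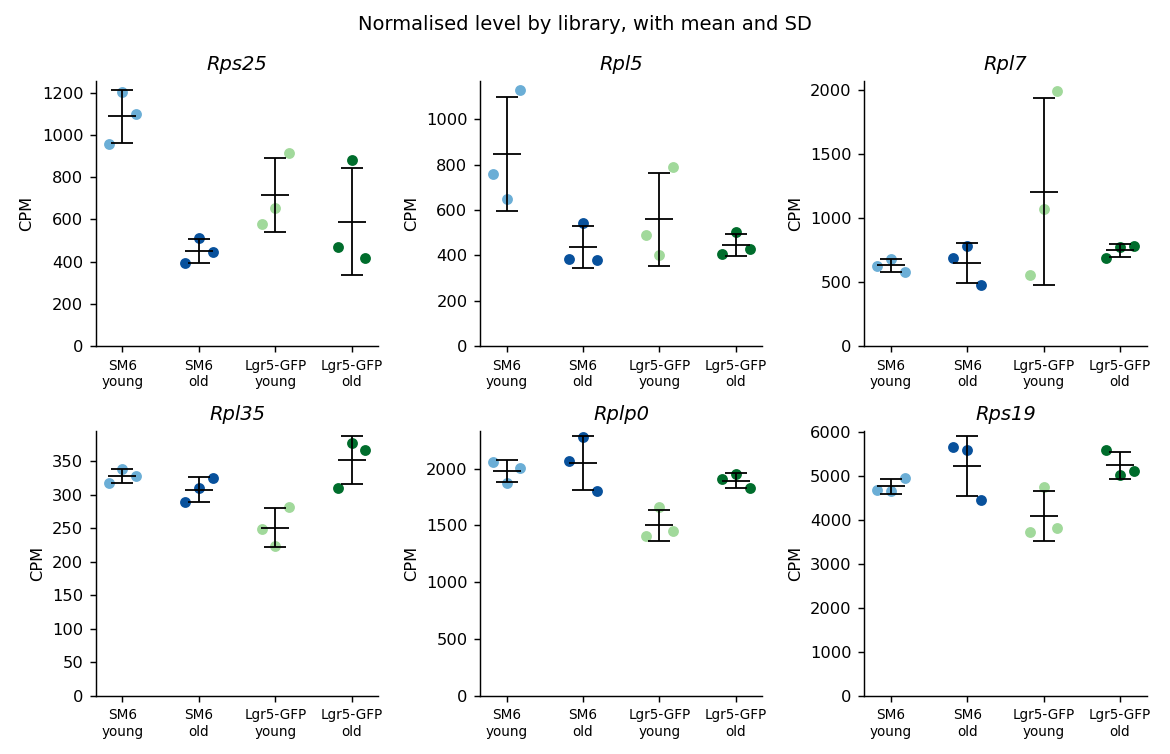
CPM of 6 ribosomal protein genes in every library, with the mean and SD of the 3 libraries of a group. Rps25 was lower in all 3 old than in all 3 young SM6 libraries, Rpl7 reached 1994 CPM in a single young Lgr5-GFP library, and Rpl35, Rplp0 and Rps19 were lower in young than in old Lgr5-GFP libraries.

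Beyond these genes, the members' age differences in SM6 were small. The median log2 fold change was 0.05 for the large and 0.11 for the small subunit, beside −0.007 for all genes tested, and both medians were negative (−0.08 and −0.02) when only library totals were used for scaling. They were also negative (−0.088 and −0.085) without SM6 old replicate 2, the library with the highest ribosomal share. Library totals alone moved the median of all genes to −0.16 in SM6 and to 0.16 in Lgr5-GFP. Relative to it, the large and small subunit stood at 0.08 and 0.14 in SM6, and at 0.27 and 0.35 in Lgr5-GFP. The 3 members whose SM6 libraries did not overlap were lower in old ISCs (Rps25, Rpl5 and Rpl24), where 9.78% of all genes did so, and 0 members were higher without overlap, where 7.74% of all genes were.

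A few large-subunit members stood below the rest in SM6 without a call. Rpl24 had the lowest log2 fold change, −1.53 ± 0.71 (edgeR adjusted p = 0.35), at 6.07, 3.88 and 7.95 CPM in young and 2.34, 2.04 and 1.60 CPM in old libraries. These levels rest on very few reads, a total of 61 counts over the 12 libraries. Rpl29 had 192, 126 and 309 CPM in SM6 young and 127, 160 and 116 CPM in SM6 old, and Rpl15 had 64.9, 79.8 and 150 CPM in young and 56.1, 77.4 and 53.5 CPM in old libraries. In both genes the young groups were spread widely by replicate 3 and overlapped with the old ones, with log2 fold changes of −0.63 ± 0.23 and −0.64 ± 0.25 (edgeR adjusted p = 0.18 and 0.23). Without the filter on low values, Rpl29 was called (edgeR adjusted p = 0.0338).

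Leaving out SM6 old replicate 3 and Lgr5-GFP young replicate 1 changed the picture in SM6. The medians rose to 0.23 for the large and 0.25 for the small subunit, beside −0.01 for all genes. Then 42 of 76 members were higher in both remaining old libraries than in all young ones, where 15.3% of all genes were, and 4 were lower, where 16.1% were. Further, 29 members were higher at an unadjusted p under 0.05, where 6.46% of genes were. Called members numbered 4, against 3.29% of all genes. They were Rpl11, Rpl22 and Rpl23, which were higher, and Rps25, which remained lower. This choice of libraries was made after the data had been seen.

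The second comparison asks the same question in ISCs of the Lgr5-GFP strain. Here nearly the whole set leaned upward in old ISCs by a small amount, and no member passed the test. The median log2 fold change was 0.25 for the large and 0.34 for the small subunit, beside −0.03 for all genes tested. Of the members, 72 of 76 were above 0, where 46.3% of all genes were. In edgeR, 0 of 76 members were called, where 0.471% of all genes were, and limma voom called 0. DESeq2 called only Rpl35, as higher. At an unadjusted p under 0.05, 22 members were higher, where 3.95% of all genes were, and 1 was lower, where 5.84% were. The 22 became 2 when Lgr5-GFP young replicate 1 was left out and 8 when replicate 3 of that group was. They became 10 and 5 when replicate 2 or replicate 3 of the old Lgr5-GFP libraries was left out, and 33 without SM6 old replicate 3. In 37 of 76 members (48.7%) all old libraries lay above all young ones, where 6.61% of all genes did so, and in 0 members they all lay below, where 7.95% did. Mitochondrially encoded genes took 8.27% ± 0.985 (SD, n = 3) of counts in old and 5.22% ± 1.14 in young Lgr5-GFP libraries, and their part in these differences was not tested. By subunit the non-overlapping members were 19 of 46 large-subunit and 18 of 30 small-subunit members.

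Rpl35, an exit tunnel protein of the large subunit, had the smallest p among the members in Lgr5-GFP. It had 248, 223 and 281 CPM in young and 310, 376 and 366 CPM in old libraries. The groups did not overlap, and the log2 fold change was 0.48 ± 0.16 (edgeR adjusted p = 0.23, DESeq2 adjusted p = 0.0487). Rpl23a, which sits at the tunnel exit and anchors the signal recognition particle, had the highest log2 fold change, 0.76 ± 0.28 (edgeR adjusted p = 0.31). Its levels were low, 14.5, 16.1 and 22.8 CPM in young and 23.3, 29.3 and 39.5 CPM in old libraries, and did not overlap.

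The P stalk recruits elongation factors to the large subunit, and Rplp0 forms its base. Rplp0 had 1404, 1659 and 1447 CPM in Lgr5-GFP young and 1905, 1954 and 1827 CPM in Lgr5-GFP old, all old libraries being higher (log2 fold change 0.33 ± 0.15, edgeR adjusted p = 0.47). Rplp1, which binds Rplp0 as a dimer with Rplp2, had 1005, 1283 and 1119 CPM in young and 1286, 1456 and 1633 CPM in old libraries, also without overlap (0.36 ± 0.18, edgeR adjusted p = 0.54). Rplp2 overlapped between ages, with 596, 747 and 684 CPM in young and 727, 807 and 714 CPM in old libraries (0.15 ± 0.17, edgeR adjusted p = 0.84). In SM6 the 3 stalk genes had log2 fold changes of 0.05, 0.08 and 0.06.

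Among small-subunit members, the same upward lean was seen in genes with different roles. Rps6, whose product is the best known substrate of the S6 kinases, had 58.3, 61.4 and 60.0 CPM in Lgr5-GFP young and 69.3, 95.1 and 99.3 CPM in Lgr5-GFP old, without overlap (log2 fold change 0.55 ± 0.25, edgeR adjusted p = 0.47). Rps19, the gene most often mutated in Diamond-Blackfan anaemia, had 3720, 4744 and 3815 CPM in young and 5598, 5031 and 5111 CPM in old libraries, again without overlap (0.36 ± 0.16, edgeR adjusted p = 0.45). Rpsa, which encodes the small-subunit protein uS2 and is also known as the laminin receptor, overlapped narrowly, with 540, 711 and 515 CPM in young and 638, 843 and 839 CPM in old libraries (0.40 ± 0.19, edgeR adjusted p = 0.51). Rps4x, a gene of the X chromosome, had 236, 246 and 235 CPM in young and 266, 331 and 270 CPM in old libraries, with all old libraries higher (0.28 ± 0.16, edgeR adjusted p = 0.63).

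In SM6 these small-subunit genes differed in sign. The log2 fold change was −0.30 ± 0.25 for Rps6, 0.14 ± 0.16 for Rps19, 0.07 ± 0.19 for Rpsa and −0.21 ± 0.16 for Rps4x, and none was called (edgeR adjusted p from 0.67 to 0.94). Rps6 was spread widely in SM6, from 51.6 to 108 CPM in young and from 45.2 to 91.6 CPM in old libraries.

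Among further large-subunit genes, 3 had higher levels in all old Lgr5-GFP libraries and 1 overlapped. Rpl10, which is added late in 60S maturation near the catalytic centre, had 102, 112 and 91.5 CPM in Lgr5-GFP young and 119, 151 and 124 CPM in Lgr5-GFP old, without overlap (log2 fold change 0.37 ± 0.17, edgeR adjusted p = 0.48). Rpl41, the smallest ribosomal protein, had 1743, 2174 and 1783 CPM in young and 2316, 2351 and 2790 CPM in old libraries, without overlap (0.39 ± 0.17, edgeR adjusted p = 0.44). Rpl36 had 440, 592 and 522 CPM in young and 679, 675 and 776 CPM in old libraries (0.46 ± 0.19, edgeR adjusted p = 0.41). All old libraries were higher for these 3 genes. Rpl22, a non-essential protein with the paralog Rpl22l1, overlapped, with 1161, 1461 and 1089 CPM in young and 1264, 1281 and 1566 CPM in old libraries (0.15 ± 0.22, edgeR adjusted p = 0.89). In SM6 it had 1228, 1339 and 1210 CPM in young and 1638, 2275 and 898 CPM in old libraries, and was called without SM6 old replicate 3 (log2 fold change 0.65, edgeR adjusted p = 0.0391).

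The 4 members below 0 in Lgr5-GFP were Rpl7, Rpl24, Rpl5 and Rps25. Rpl7, a large-subunit protein, had 554, 1070 and 1994 CPM in young and 691, 772 and 784 CPM in old libraries, so that replicate 1 lay below and replicates 2 and 3 above all old libraries. Its log2 fold change was the lowest of the members, −0.69 ± 0.28 (edgeR adjusted p = 0.40). It was called lower without Lgr5-GFP young replicate 1 (−1.03, edgeR adjusted p = 0.0445) and without the filter on low values (−0.71, edgeR adjusted p = 0.0079). In SM6 the levels were between 479 and 783 CPM in all libraries (log2 fold change 0.05 ± 0.28).

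Without SM6 old replicate 3 and Lgr5-GFP young replicate 1, the lean in Lgr5-GFP was smaller but kept its direction. The medians were 0.17 for the large and 0.25 for the small subunit, beside −0.004 for all genes. Then 37 members lay higher in all old libraries than in both remaining young ones, where 10.5% of all genes did so, and 13 were higher at an unadjusted p under 0.05, where 4.02% were. With this pair left out, the medians of the age difference in the isolations lay close together (0.23 and 0.25 in SM6, 0.17 and 0.25 in Lgr5-GFP).

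**Figure D4:**
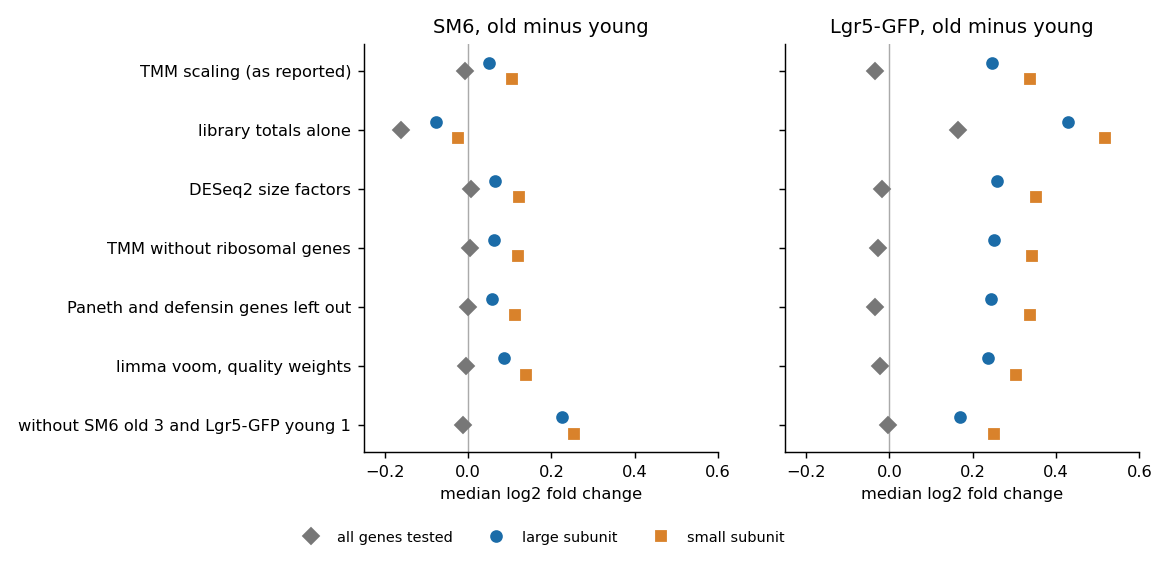
Median log2 fold change (old minus young) of large-subunit genes, small-subunit genes and all genes tested, in SM6 and Lgr5-GFP, under 7 settings. In SM6 the ribosomal medians are negative with library totals alone (−0.08 and −0.02), where all genes stand at −0.16, and reach 0.23 and 0.25 without the pair of defensin-rich libraries, and in Lgr5-GFP they lie between 0.17 and 0.52 throughout.

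The average of both age effects and their difference were tested in the same model. In the average, 2 members were called lower (Rps25 and Rpl5), where 2.06% of all genes were, and 0 were called higher, where 0.598% were, with the same counts in DESeq2 and limma voom. At an unadjusted p under 0.05, 9 members were higher, where 4.79% of all genes were, and 3 were lower, where 8.02% were. Leaving out 1 library moved the 9 to between 1 (without SM6 old replicate 2) and 45 (without SM6 old replicate 3). The 9 became 26 in DESeq2, 29 in limma voom and 1 with library totals alone. The medians were 0.17 for the large and 0.21 for the small subunit, beside −0.03 for all genes. Rpl36 had the highest average log2 fold change, 0.38 ± 0.13 (edgeR adjusted p = 0.17), and was called without SM6 old replicate 3 (0.49, edgeR adjusted p = 0.0129). Without that library 8 members were called, where 3.54% of all genes were, and of these Rpl17, Rpl32, Rpl36, Rpl41, Rps10 and Rps12 were higher. Rpl24 had the lowest average, −1.08 ± 0.52 (edgeR adjusted p = 0.39).

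When the SM6 age effect was subtracted from the Lgr5-GFP one, 0 members were called by edgeR, DESeq2 or limma voom, where edgeR called 0.658% of all genes. Unadjusted p-values under 0.05 were found for 9 members that were higher, where 4.25% of all genes were. With library totals alone there were 18, and in limma voom 5. The 9 became 3 without SM6 old replicate 1 or replicate 3 and 17 without replicate 2 of that group, and 4 or 5 when replicate 2 or 3 of the old or replicate 1 of the young Lgr5-GFP libraries was left out. The medians of 0.21 for the large and 0.23 for the small subunit fell to −0.05 and −0.01 without SM6 old replicate 3 and Lgr5-GFP young replicate 1, when Rpl7 alone was called, as lower (log2 difference −1.26, edgeR adjusted p = 0.0228). Leaving out SM6 old replicate 3 alone gave 0.02 and 0.06, leaving out Lgr5-GFP young replicate 1 alone gave 0.12 and 0.15, and leaving out SM6 old replicate 2 gave 0.38 for both subunits. With library totals alone the medians were 0.51 and 0.54, beside 0.35 for all genes, and limma voom gave 0.13 and 0.18.

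The members' signs in the isolations were as follows. The log2 fold change was positive in both for 52 of 76 members, negative in both for 3 (Rps25, Rpl5 and Rpl24), and negative in SM6 but positive in Lgr5-GFP for 20. Over all genes tested, 49.1% were positive in SM6 and 46.3% in Lgr5-GFP. These counts are of fitted values, most of which did not pass the test.

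**Figure D5:**
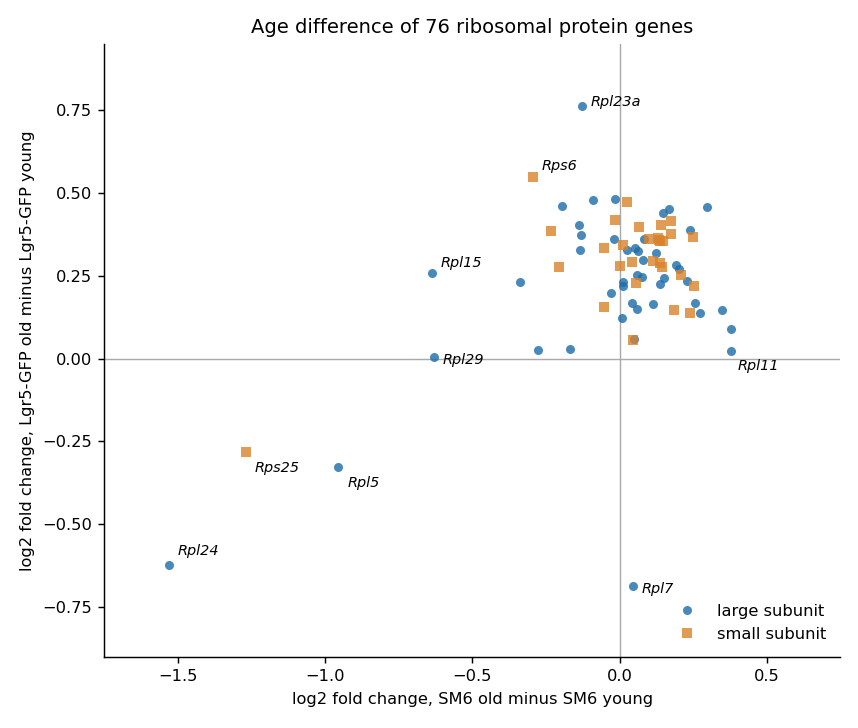
Log2 fold change (old minus young) of each ribosomal protein gene in SM6 (x axis) and in Lgr5-GFP (y axis), with named genes at the edges. Most points lie above 0 in Lgr5-GFP (72 of 76, where 46.3% of all genes did) and near 0 in SM6. The SM6 medians change sign with library totals alone, and Rps25, Rpl5 and Rpl24 are below 0 on both axes.

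The last comparisons set Lgr5-GFP against SM6 at each age. In young ISCs, the fitted log2 fold change was above 0 for 13.2% of members and 49.0% of all genes, with medians of −0.23 for the large and −0.24 for the small subunit, beside −0.008 for all genes, and −0.35 and −0.37 beside −0.15 with library totals alone. None was called by edgeR, DESeq2 or limma voom, where edgeR called 0.0898% of all genes. At the unadjusted threshold of 0.05, 16 members were lower, where 3.81% of all genes were, and Rpl7 was higher. The 16 became 7 without Lgr5-GFP young replicate 1, and 9 or 10 when replicate 2 or replicate 3 of the young SM6 libraries was left out. In 20 members all Lgr5-GFP young libraries lay below all SM6 young ones, where 7.35% of all genes did so. Without the pair of defensin-rich libraries the medians were −0.10 and −0.14, and Rpl7 was called higher (log2 fold change 1.31, edgeR adjusted p = 6.1e-04).

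In old ISCs, the isolations were close, with medians of −0.001 for the large and −0.01 for the small subunit beside 0 for all genes, and 0.18 and 0.16 beside 0.21 with library totals alone. No member was called by edgeR, DESeq2 or limma voom, where edgeR called 0.718% of all genes. By unadjusted p under 0.05 only Rpl13a was higher, where 3.84% of all genes were, and this count became 4 without SM6 old replicate 2, 3 without Lgr5-GFP old replicate 1 and 2 without replicate 3 of the latter group. Rpl13a had 233, 182 and 167 CPM in Lgr5-GFP old and 143, 135 and 110 CPM in SM6 old, without overlap (log2 fold change 0.59 ± 0.20, edgeR adjusted p = 0.27). The medians in old ISCs turned on single SM6 libraries, with 0.17 and 0.15 without SM6 old replicate 2 and −0.16 and −0.19 without SM6 old replicate 3, the latter also without Lgr5-GFP young replicate 1. With both libraries of that pair left out, 30 of 76 members were lower in Lgr5-GFP old without overlap, where 13.9% of all genes were, and 9 were lower at an unadjusted p under 0.05, where 5.35% were.

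Members were also grouped by their place in the ribosome, and these lists were described without a test. For the 8 exit tunnel proteins, the median difference on the log2 scale was 0.13 (SM6) and 0.27 (Lgr5-GFP). The 14 proteins of the small-subunit head, Rps25 among them, had medians of 0.12 and 0.36, and the 16 of its body had 0.06 and 0.29. In Lgr5-GFP, 8 of 8, 13 of 14 and 16 of 16 of these were above 0, where 46.3% of all genes were. The pair that binds 5S ribosomal RNA, Rpl5 and Rpl11, was split in sign in SM6. In Lgr5-GFP, where neither was called, both signs changed when single libraries were left out.

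Ribosomal components outside the symbol rule were also measured. Rack1, a signalling scaffold on the small subunit, had a log2 fold change of −0.14 ± 0.17 in SM6 and 0.43 ± 0.17 in Lgr5-GFP (edgeR adjusted p = 0.81 and 0.40), and Fau, which encodes a fusion of a ubiquitin-like protein with RPS30, had 0.03 ± 0.17 and 0.38 ± 0.17 (edgeR adjusted p = 0.97 and 0.44). Rps3a1, which encodes a small-subunit protein, had −0.14 ± 0.18 and 0.18 ± 0.18 (edgeR adjusted p = 0.83 and 0.82). None of these genes was called in either isolation by edgeR, DESeq2 or limma voom. Among 8 paralogs, 5 were tested and 0 were called by edgeR, where it called 0.643% of all genes higher and 1.77% lower in SM6 and 0.471% in Lgr5-GFP. At an unadjusted p under 0.05, 1 was higher in SM6, where 5.45% of all genes were, and 0 in Lgr5-GFP, where 3.95% were. For the average, DESeq2 called the paralog Rps27l higher, where it called 3.00% of all genes in either direction, and edgeR did not (adjusted p = 0.21). Outside the members and the paralog list, Rps4l, annotated as a transcribed pseudogene and named after its values were seen, was called lower in old ISCs of both isolations. Its SM6 counts were 67, 91 and 39 at the young age against 0, 1 and 0 at the old age (edgeR adjusted p = 2.3e-07). The Lgr5-GFP counts were 116, 51 and 113 at the young age against 1, 1 and 2 at the old age (edgeR adjusted p = 8.6e-07). Nearly all of its counts thus lay in young ISCs.

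Genes that act on the ribosome or share its control were taken from fixed lists. Of 52 genes of ribosome biogenesis, 2 were called lower in the average of both age effects, where 2.06% of all genes were. They were Tcof1, a nucleolar cofactor of ribosomal RNA transcription (log2 fold change −0.52 ± 0.13, edgeR adjusted p = 0.0263), and Gar1, a core protein of the RNA pseudouridylation complexes (−0.55 ± 0.14, edgeR adjusted p = 0.0369). Within SM6, edgeR called 0 of the 52, with 6 lower at an unadjusted p under 0.05, where 7.68% of all genes were. DESeq2 called 2 of them lower, where it called 2.11% of all genes lower, and limma voom 4, where it called 2.43%. Within Lgr5-GFP no tool called any, where edgeR called 0.471% of all genes. There 5 were lower and 1 higher at an unadjusted p under 0.05, where 5.84% and 3.95% of all genes were. The list medians were −0.07 in SM6 and −0.03 in Lgr5-GFP, beside −0.007 and −0.03 for all genes.

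Of 17 other mRNAs with a TOP motif, Hnrnpa1, a splicing regulator, was called lower in SM6, where 1.77% of all genes were, and in the average, where 2.06% were. It had 388, 494 and 346 counts in SM6 young and 145, 153 and 171 counts in SM6 old. The old libraries lay well below the young ones, and the log2 fold change was −1.10 ± 0.18 (edgeR adjusted p = 9.6e-04). In Lgr5-GFP it was −0.44 ± 0.18 (edgeR adjusted p = 0.39). The list's medians were −0.09 in SM6 and 0.18 in Lgr5-GFP. Among 10 genes of translation elongation and 15 of mTORC1 and LARP1, 0 were called by edgeR, DESeq2 or limma voom in either isolation, where edgeR called 0.643% of all genes higher and 1.77% lower in SM6 and 0.471% in Lgr5-GFP. With an unadjusted p under 0.05, 1 elongation gene was lower in SM6, where 7.68% of all genes were, and 1 was higher in Lgr5-GFP, where 3.95% were. Of the mTORC1 list, 2 were higher in SM6 at that threshold, where 5.45% of all genes were.

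Counts of these genes depend on how reads were assigned, because many ribosomal protein mRNAs have near-identical processed copies and some genes overlap neighbours. In GENCODE vM21, 49 members had some stretch of 72 bases within their last 300 transcript bases that also occurs in a transcript elsewhere, with no overlap of a neighbour there. A further 7 members (Rpl5, Rpl23a, Rpl24, Rpl32, Rpl35, Rps10 and Rps25) had part of their last 300 bases in exons of another gene, and 20 had neither. Of these 7, all but Rpl5 also had such copies elsewhere. How reads that match several places were treated, and whether strand was used in counting, was not given in the sources used here, so levels of members with copies or overlaps are uncertain.

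The upward lean in Lgr5-GFP was of like size with and without copies. The median log2 fold change was 0.28 in the 20 members with neither copy nor overlap, and 0.28 in the 49 members with copies and no overlap. In SM6, these medians were 0.05 and 0.08. The overlapping members were more varied, from −0.62 to 0.76 in Lgr5-GFP and from −1.53 to 0.25 in SM6.

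Both called members overlap a neighbour on the opposite strand. The end of Rpl5 lies wholly within exons of Fam69a, which had between 9 and 51 counts in a library where Rpl5 had between 423 and 1907. Fam69a had a log2 fold change of −0.08 ± 0.33 in SM6 (edgeR adjusted p = 0.96). Rps25 shares exon bases with Trappc4 and Ccdc84, and 10.3% of its last 300 bases lie in exons of another gene. In addition, 38.4% of the 72-base stretches in the last 300 bases of Rps25 also occur in a transcript elsewhere. Trappc4 had between 151 and 441 counts in a library and a log2 fold change of 0.16 ± 0.16 in SM6 (edgeR adjusted p = 0.76), and Ccdc84 had between 1 and 34 counts. None of these neighbours was called in SM6. The part of overlapping reads in the lower levels of Rps25 and Rpl5, and of copies in that of Rps25, was not tested.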

How the data were processed

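3′ RNA sequencing libraries of 12 mice, 3 in each of 4 groups, were analysed. The authors aligned the reads to GRCm38 with STAR 2.4.2a and used featureCounts over exons of GENCODE genes. Their deposited values are unscaled counts. Molecular identifiers were added in library preparation, but whether they were collapsed was not given in the sources used here. If they were not, repeated copies of a molecule were counted, and the intervals of shares are too narrow even for counting error. Annotation was taken from GENCODE vM21, which held 54165 of the identifiers. Depth ran from 970472 to 3815425 counts per library.

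The study's filter (over 5 reads and CPM of 1 or more, in any 1 library) left 13368 genes. Counts were scaled by TMM and fitted with edgeR 4.0.16 in R 4.3.3 (quasi-likelihood, 1 mean per group, two-sided, common dispersion 0.0434). The same code was run on simulated counts as a check of the code only, and its outcome is not given here. Alternatives used DESeq2 1.42.0 and limma 3.58.1. P-values were adjusted by Benjamini-Hochberg over all genes tested. Errors of fold changes are approximate standard errors, the absolute log2 fold change divided by the square root of the quasi-likelihood F statistic. The replicates are single mice.

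Members and lists were chosen with earlier results of these data known. The members to name were those called with the smallest adjusted p, 12 fixed genes (Rplp0, Rplp1, Rplp2, Rpsa, Rps4x, Rps6, Rpl10, Rpl22, Rpl41, Rpl5, Rpl11 and Rps19), and the highest and lowest fold change in each age comparison. Other members, such as Rpl13a, Rpl15, Rpl23, Rpl29 and Rpl35, and the outside genes Rack1, Fau and Rps3a1, were named after their values were seen. An entry of the list of ribosomal components outside the symbol rule is not reported here.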

Additional observations from a re-analysis of the deposited data

How the results depend on the processing

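Leaving out 1 library at a time gave from 1 to 4 called members in SM6 (from 1.09% to 3.03% of all genes), from 0 to 1 in Lgr5-GFP (0.195% to 0.848%), from 1 to 8 in the average (1.71% to 3.54%) and from 0 to 1 between the isolations in young ISCs (0.0449% to 0.293%). The median of the large minus the small subunit then ran from −0.057 to −0.0031 in SM6, from −0.094 to −0.038 in Lgr5-GFP and from −0.049 to 0.043 for the difference of the age effects, where limma voom gave −0.056. Without any filter on low values, 1 member was called in Lgr5-GFP (1.16% of all genes), 1 for the difference of the age effects (0.948%) and 3 between young isolations (0.529%). DESeq2 called 1 in Lgr5-GFP (0.636%), and library totals alone left 1 in the average (2.16%). Leaving out both defensin-rich libraries, an alternative chosen after seeing the data, gave 4 called members in SM6 (3.29%), 1 in Lgr5-GFP (0.606%), 1 for the difference (0.458%) and 1 between young isolations (0.155%). It also gave 46 members whose SM6 libraries did not overlap (42 higher and 4 lower), where 31.4% of all genes did not. The mean share was 9.36% in Lgr5-GFP old and 7.91% in Lgr5-GFP young without Paneth and defensin genes in the total, and 9.87% and 7.03% without mitochondrially encoded genes, and that of SM6 young was 8.96% without the latter. Over all genes, SM6 calls numbered 323, against 603 without the filter, and Lgr5-GFP calls 63 against 274. The causes were not tested.

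Rps25 kept its direction and call in SM6 and in the average under every alternative run (log2 fold change from −1.42 to −1.16 and from −0.98 to −0.67). Among the named members, directions turned only for values that were not called. With library totals alone, SM6 values were −0.078 for Rpl7, −0.086 for Rplp0, −0.042 for Rplp1, −0.074 for Rplp2, −0.0016 for Rps19 and −0.057 for Rpsa. Without both defensin-rich libraries, Rpl11 was at −0.083 in Lgr5-GFP. Leaving out 1 library, values ran from −0.087 to 0.12 for Rpl11 and from −0.52 to 0.0062 for Rpl5 in Lgr5-GFP. In SM6 they ran from −0.11 to 0.23 for Rpl7, from −0.030 to 0.15 for Rplp0, from −0.085 to 0.28 for Rplp1, from −0.075 to 0.21 for Rplp2, from −0.64 to 6.3e-05 for Rps6 and from −0.064 to 0.27 for Rpsa. In the average they ran from −0.029 to 0.087 for Rps4x and from −0.048 to 0.27 for Rps6.

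Replicate numbers did not pair the samples, since deviations of same-numbered young and old libraries correlated between −0.0417 and 0.0201. With the replicate number as a block, 2 members were called in SM6, 2 in the average and 0 in the other 4 comparisons, as without it. A fit of only the groups compared was not made for the average and the difference of the age effects, which use all groups.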
